A study of Homo sapiens with 9 samples.

Results

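The genes described here make cholesterol and fatty acids: 32 genes of the 60683 counted in each of 9 libraries, taken by gene symbol from a fixed list. The sterol branch held 22 of them, the enzymes that lead to squalene and on to cholesterol together with SREBF2, SCAP, INSIG1 and STARD4, and the fatty acid branch held 10, the enzymes of synthesis, elongation and desaturation with SREBF1 and LPIN1. All 32 were found in every count file and all 32 were abundant enough to be tested. The libraries are mRNA libraries of human cells labelled HCT-15, a line named for a colorectal adenocarcinoma, and they compare cells adapted to a drug with cells that received none.

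The oxaliplatin group has 3 libraries of cells given 0.5 µM of this DNA-binding platinum drug for 7 days, then stepped up to 1, 2 and 4 µM from day 10 until day 30 and kept at 4 µM afterwards. The sorafenib group has 3 libraries of cells adapted in a similar way to sorafenib, an inhibitor of RAF and receptor tyrosine kinases, with doses that the labels do not give. The untreated group has 3 libraries. All 9 are labelled wild type and all cells grew in RPMI1640 with 10% fetal bovine serum. The titles carry 1 library code per group and nothing states that the libraries of a group came from separate cultures, so the p-values below rest on differences among libraries of a group that may be technical only.

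Cells make cholesterol from acetyl-CoA through mevalonate and farnesyl diphosphate to squalene, and from squalene through lanosterol. Fatty acids are built from the same acetyl-CoA, which ACLY frees from citrate and ACACA carboxylates to malonyl-CoA for FASN, while SCD puts the double bond into saturated chains. Both branches answer to the SREBP transcription factors, SREBF2 mainly for sterol genes and SREBF1 mainly for fatty acid genes. SCAP carries the SREBP precursors out of the endoplasmic reticulum, and INSIG1 holds them there when sterol is plentiful. Many promoters of the pathway hold a sterol regulatory element close to boxes for NF-Y and Sp1.

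Upstream stretches are shown for 5 of the 8 members called in oxaliplatin against untreated libraries. FDPS and MSMO1 from the sterol branch and SREBF1 and SCD from the fatty acid branch were lower in oxaliplatin libraries than in untreated ones. ACACA from the fatty acid branch was higher. They are RefSeq promoter sequence in GRCh38.p14, 5′ to 3′ on the gene's strand, from 230 bases before the annotated start up to the first annotated exon base, and are those of the members called in oxaliplatin where that stretch had at least 100 bases. Capitals mark the NF-Y box, CCAAT or its reverse complement ATTGG, where it lies whole within the stretch. Another box of FDPS, at -122 to -118 from the start, is cut by the end of its stretch at -119 and is not marked. The stretch of FDPS lies at chr1:155308636-155308747 on the plus strand, that of MSMO1 at chr4:165327439-165327622 on the plus strand, that of SREBF1 at chr17:17837003-17837216 on the minus strand, that of SCD at chr10:100347003-100347123 on the plus strand and that of ACACA at chr17:37406950-37407066 on the minus strand.
FDPS: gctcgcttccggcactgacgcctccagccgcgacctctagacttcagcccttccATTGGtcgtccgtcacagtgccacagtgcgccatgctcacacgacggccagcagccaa
MSMO1: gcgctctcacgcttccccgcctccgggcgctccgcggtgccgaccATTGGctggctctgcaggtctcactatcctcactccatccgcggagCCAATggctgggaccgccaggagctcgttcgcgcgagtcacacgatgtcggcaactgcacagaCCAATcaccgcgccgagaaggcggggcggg
SREBF1: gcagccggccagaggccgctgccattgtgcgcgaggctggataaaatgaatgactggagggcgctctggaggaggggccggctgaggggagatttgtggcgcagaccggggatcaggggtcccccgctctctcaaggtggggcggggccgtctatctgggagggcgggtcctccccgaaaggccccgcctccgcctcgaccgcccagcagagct
SCD: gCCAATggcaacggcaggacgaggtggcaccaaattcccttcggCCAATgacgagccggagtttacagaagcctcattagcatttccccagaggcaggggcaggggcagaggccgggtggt
ACACA: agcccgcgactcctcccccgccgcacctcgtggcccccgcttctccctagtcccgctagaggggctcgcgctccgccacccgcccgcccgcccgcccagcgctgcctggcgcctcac

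The stretches differ in length, so their numbers of boxes are not to be compared. Over the whole RefSeq window, from 250 bases before to 50 after the start, 28 of the 32 members had a sequence, and ACAT2, FASN, FDFT1 and SQLE had none. On either strand the NF-Y box was in 15 of 19 sterol branch windows and in 3 of 9 fatty acid branch windows, against 35.7% of 27305 windows of all genes. The Sp1 box, GGGCGG, was in 18 of 19 and 8 of 9 windows, against 44.6% of all, and CACGTG, an E-box, was in 4 of 19 and 0 of 9, against 7.43%. The sterol regulatory element searched as TCACNCCAC was in 1.15% of all windows and, among the members, in that of SREBF2 alone. Forms of the element with other letters were not searched for, so the other windows may still hold one. These matches describe letters in a fixed window and are not binding sites.

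Total counts were 15797076 to 20936536 per library, and 22564 to 24338 genes had at least 1 count. The libraries of a group differed by more than sampling noise, so each was kept as a sample. Untreated 1 stood nearer to sorafenib 1 (correlation of log2 levels 0.975 across genes, which are not independent) than to untreated 2 and 3 (0.971 and 0.972), so results of these groups are also given without that pair. The label was set against marker lists. Of 20 colorectal epithelial markers 16 had a median under 1 CPM (counts scaled to an equal effective library size) and 9 were at 0 in all 9 libraries (CDX1, CDX2, CDH1, KRT20, CEACAM5, PHGR1, HNF4A, MUC2 and TFF3), whereas 8 of 20 renal epithelial markers had a median of at least 10 CPM, among them PAX8 at 336 and HAVCR1 at 173. The markers therefore go against the label, and the cells are called the labelled HCT-15 cells here. The summed colorectal list, almost wholly KRT8, KRT18 and ELF3, ranged over 944 to 1161 CPM in oxaliplatin, 1042 to 1345 in sorafenib and 1423 to 1834 in untreated libraries. The summed renal list ranged over 938 to 1049, 942 to 1190 and 676 to 962 CPM in the same groups. The part of these shifts in the results below was not tested. Of 8 immune markers 7, and of 10 fibroblast and endothelial markers 8, had a median under 1 CPM. The summed fibroblast and endothelial list was almost wholly COL1A1 and PDGFRB, with COL3A1, LUM, VWF, CDH5 and KDR at 0. It ranged over 16.6 to 24.7 CPM in oxaliplatin, 4.13 to 4.94 in sorafenib and 11.4 to 48.9 in untreated libraries. The summed immune list was almost wholly CD68, with PTPRC and CD3E among the genes at 0. It ranged over 20.4 to 57.8, 17.8 to 50.3 and 25.5 to 48.1 CPM in the same groups. Of 8 liver markers 6 had a median under 1 CPM, with APOB and TTR at 0. Their sum, almost wholly FGB and SERPINA1, ranged over 142 to 202, 41.3 to 49.7 and 91.2 to 141 CPM.

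Expressed per kilobase of exon, so that genes can be set beside each other, the untreated cells held most of ACLY, which frees acetyl-CoA from citrate, at 111 ± 15.1 CPM per kb (SD, n = 3, as below). FASN, the fatty acid synthase, followed at 40.3 ± 1.02 CPM per kb and SCD at 29.1 ± 3.49 CPM per kb. The next genes, FDPS at 23.5 ± 3.10 and SREBF2 at 21.1 ± 1.36 CPM per kb, did not differ beyond their spread. The lowest were ELOVL6, the elongase of saturated chains, at 0.610 ± 0.031, the desaturase FADS2 at 0.495 ± 0.023 and LSS, which closes the sterol ring, at 0.368 ± 0.204 CPM per kb. By median CPM without length, 1 of 22 sterol branch and 3 of 10 fatty acid branch genes lay at 100 or more, and 7 and 3 lay under 10. LSS rested on 479 counts over all 9 libraries and ACLY on 103010, so the low genes carry more counting error.

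**Figure D1:**
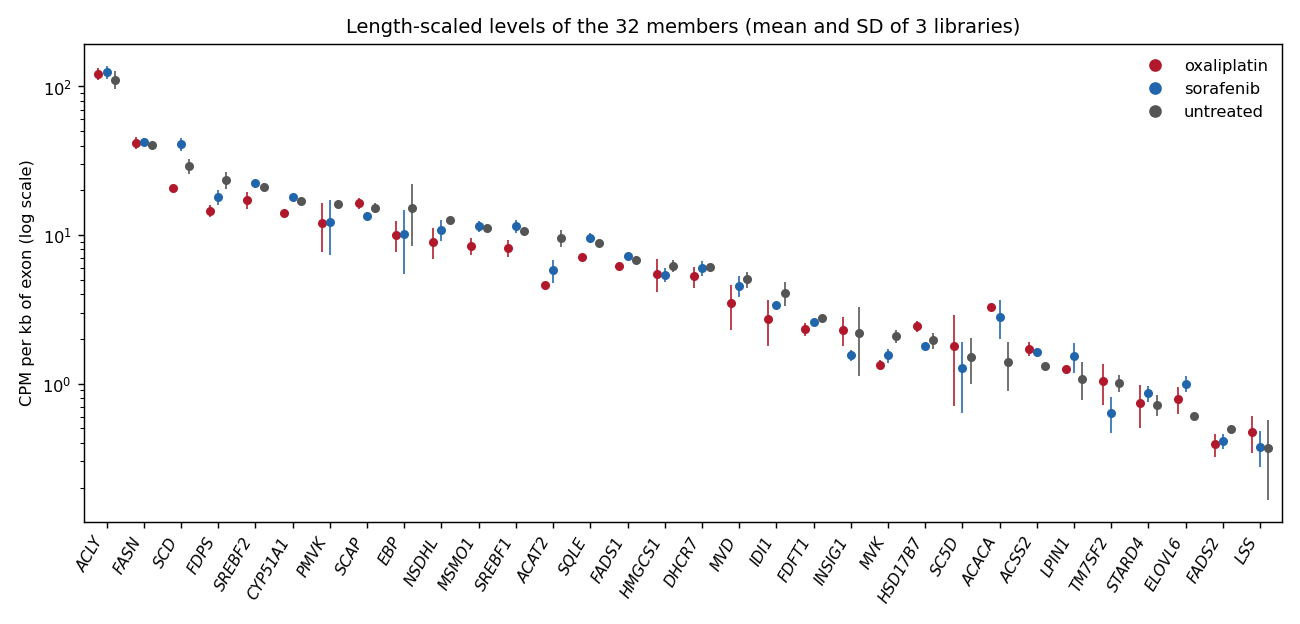
Mean level of each of the 32 members in CPM per kb of exon on a log axis, with the SD of 3 libraries as bars, for oxaliplatin (red), sorafenib (blue) and untreated (grey) libraries, ordered by the untreated mean. ACLY, FASN and SCD stand at the top and LSS at the bottom, and the SCD points of the 3 groups lie apart from each other.

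Cells in oxaliplatin had lower levels of 7 members and a higher level of 1 than untreated cells. The sterol branch had 5 of 22 genes lower and none higher: ACAT2, MVK and FDPS of the mevalonate steps, and SQLE and MSMO1 of the steps after squalene. The fatty acid branch was mixed, with SREBF1 and SCD lower and ACACA higher, and 7 of 10 not called. Calls needed an adjusted p under 0.05 from the quasi-likelihood F-test of edgeR, adjusted by the Benjamini-Hochberg method over 16159 genes, and every adjusted p here is of that kind unless another tool is named. By that rule 8 of 32 members, or 25.0%, were called, against 31.7% of all genes tested, so the members' share was not above that background. All 7 lower calls stand beside 15.5% of genes called lower, and the 1 higher call beside 16.2% called higher. In 15 of 32 members, or 46.9%, the libraries of the 2 groups did not overlap, against 48.1% of all genes. In such bulk libraries, less RNA of a gene per cell and fewer cells that express it cannot be told apart.

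All 8 genes of the mevalonate steps had a negative log2 fold change in oxaliplatin, under the main scaling and under 4 others (RLE factors, library size only, and corrections for length or for GC content and length), although HMGCS1 was at 0.02 without oxaliplatin 2. Their median was -0.56, against 0.016 over all genes tested. Of the 8, 3 or 37.5% were called, all lower, against 31.7% of all genes called in either direction and 15.5% called lower. ACAT2, the cytosolic thiolase that joins 2 acetyl-CoA units at the start of the pathway, had 20.4, 18.9 and 20.2 CPM in oxaliplatin libraries 1 to 3, against 35.1, 45.7 and 42.9 CPM in untreated libraries. The groups did not overlap, and the highest oxaliplatin library was well below the lowest untreated one. The log2 fold change was -1.05 ± 0.15 (SE), with an edgeR adjusted p of 0.00207. On the opposite strand ACAT2 shares 1458 bases of exon with SOD2-OT1 and 1141 with SOD2, which held 12 and 13 counts over all libraries. It also shares 397 bases with TCP1, a chaperonin subunit on that strand, which held 37986 counts against 4718 for ACAT2. Since the strand setting of the counting is not given in the sources used here, reads in these stretches cannot be told apart. TCP1 itself was lower by this test (-0.42 ± 0.13 on the log2 scale, adjusted p = 0.0398), a call that was lost without any 1 of untreated 2 or 3, oxaliplatin 1, 2 or 3, or sorafenib 3 (adjusted p from 0.0567 to 0.137).

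FDPS makes farnesyl diphosphate, from which sterols, ubiquinone and protein prenyl groups all branch. It had 50.6, 51.9 and 60.4 CPM in oxaliplatin libraries, against 74.4, 91.7 and 96.2 CPM in untreated ones, again without overlap. Its log2 fold change was -0.69 ± 0.14 (adjusted p = 0.00648). FDPS shares 693 bases of exon with RUSC1-AS1 on the opposite strand, which held 606 counts against 11468 for FDPS. MVK, the mevalonate kinase, had 8.39, 8.14 and 9.48 CPM in oxaliplatin libraries, against 11.97, 14.3 and 14.2 CPM in untreated libraries, a log2 fold change of -0.64 ± 0.15 (adjusted p = 0.0117). MVK shares 306 bases of exon with its opposite-strand neighbour MMAB, an enzyme of vitamin B12 metabolism, which was lower as well, at 15.7 ± 3.21 CPM in oxaliplatin and 27.9 ± 2.62 CPM in untreated libraries (log2 fold change -0.83, adjusted p = 0.00543). The calls of ACAT2, FDPS and MVK held in all 19 alternatives run, which include leaving out each library in turn.

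The other 5 mevalonate genes were not called, with log2 fold changes of -0.17 to -0.58. HMGCS1, the synthase that makes HMG-CoA and a classical SREBP target, had 31.0, 18.7 and 28.0 CPM in oxaliplatin libraries, against 31.5, 26.2 and 29.7 CPM in untreated ones. The oxaliplatin range spanned the whole untreated one apart from its top, and the adjusted p was 0.510. For the isomerase IDI1, oxaliplatin libraries 1 to 3 held 7.70, 15.7 and 12.1 CPM, against 14.02, 19.0 and 20.1 CPM in untreated libraries (adjusted p = 0.0898, and 0.0352 without oxaliplatin 2). For the decarboxylase MVD the adjusted p was 0.0971, and 0.0148 without oxaliplatin 3, the library that held 22.4 CPM where oxaliplatin 1 and 2 held 14.9 and 11.7.

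After squalene, 2 of 10 genes were called. SQLE, the squalene epoxidase and a rate-controlling step, had 30.7, 30.4 and 30.4 CPM in oxaliplatin libraries, against 36.3, 39.0 and 39.1 CPM in untreated ones. The 3 oxaliplatin values were almost the same and all lay below the untreated ones, a log2 fold change of -0.32 ± 0.10 (adjusted p = 0.0410). MSMO1, which removes methyl groups from the sterol ring, had 25.7, 27.1 and 20.7 CPM in oxaliplatin libraries, against 30.8, 33.7 and 32.5 CPM in untreated ones, a log2 fold change of -0.40 ± 0.13 (adjusted p = 0.0421). These calls sat at the threshold. That of SQLE was lost without any 1 of untreated 2 or 3, oxaliplatin 1, 2 or 3, or sorafenib 2 or 3 (adjusted p from 0.0561 to 0.117), and that of MSMO1 without any 1 of 8 of the 9 libraries, all but sorafenib 1 (0.0524 to 0.121).

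Among the 8 not called, 4 had a negative log2 fold change and 4 a positive one. The negative ones included CYP51A1, the lanosterol demethylase (-0.27, adjusted p = 0.0623, and 0.0388 by DESeq2), and NSDHL, which decarboxylates the ring (-0.49, adjusted p = 0.0592). NSDHL was called without oxaliplatin 3 (0.0137), without sorafenib 1 (0.0469) and by DESeq2 (0.0383). TM7SF2, LSS, SC5D and HSD17B7 had positive values of 0.04 to 0.36 with adjusted p from 0.132 to 0.923. SC5D, a desaturase of the last steps, was the most uneven member, at 3.21 to 14.9 CPM within the oxaliplatin group and 5.41 to 11.2 CPM within the untreated group.

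Of the regulators, SREBF1 was lower in oxaliplatin. It had 63.2, 58.4 and 75.3 CPM in oxaliplatin libraries, against 87.4, 89.0 and 80.9 CPM in untreated ones, a log2 fold change of -0.39 ± 0.12 (adjusted p = 0.0385). The groups did not overlap, but oxaliplatin 3 came close to the lowest untreated library. The call was lost without any 1 of the untreated libraries, oxaliplatin 1 or 2, or sorafenib 2 (adjusted p from 0.0517 to 0.127). SREBF1 shares 556 bases of exon with opposite-strand RAI1, which had the other direction (0.68, adjusted p = 0.0380, lost without untreated 2 or 3 or oxaliplatin 1 or 3, at 0.0809 to 0.130). SREBF2 had 133, 111 and 146 CPM in oxaliplatin libraries, against 170, 150 and 159 CPM in untreated ones. The groups did not overlap, but the log2 fold change of -0.29 ± 0.11 missed the threshold (adjusted p = 0.0770, and 0.0358 without oxaliplatin 3). SREBF2 was called lower at -0.49 after the correction for length (adjusted p = 0.0118) and at -0.32 after that for GC content and length (0.0175). INSIG1 had 10.6, 7.38 and 7.30 CPM in oxaliplatin libraries, against 5.51, 5.97 and 12.5 CPM in untreated ones, with the untreated group spanning the oxaliplatin one (adjusted p = 0.873). SCAP and STARD4, a sterol carrier, had log2 fold changes of 0.09 and 0.04.

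**Figure D2:**
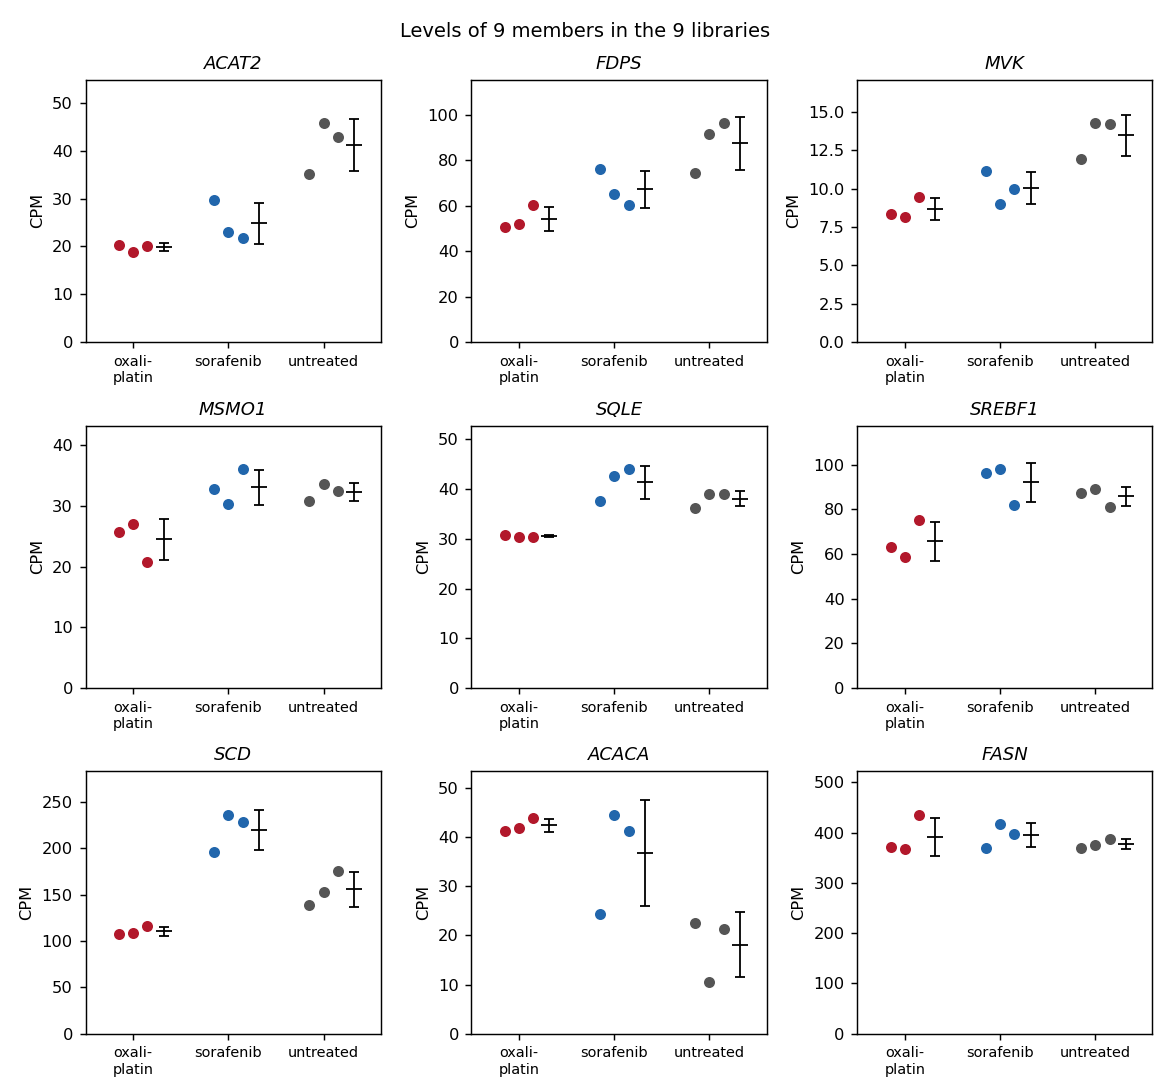
Level in CPM of 9 members in each library (points), with the mean and SD of 3 libraries per group in black, for oxaliplatin, sorafenib and untreated cells. ACAT2, FDPS and MVK are lowest in oxaliplatin and between the other groups in sorafenib, SCD is highest in sorafenib and lowest in oxaliplatin, and FASN overlaps in all 3 groups.

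In the fatty acid branch SCD and ACACA went opposite ways in oxaliplatin. SCD, the stearoyl-CoA desaturase, had 107, 108 and 116 CPM in oxaliplatin libraries, against 139, 153 and 176 CPM in untreated ones. The log2 fold change was -0.50 ± 0.12 (adjusted p = 0.0121), without overlap. ACACA, the acetyl-CoA carboxylase that commits carbon to fatty acids, had 41.3, 41.9 and 44.0 CPM in oxaliplatin libraries, against 22.6, 10.6 and 21.2 CPM in untreated ones. All oxaliplatin libraries lay above all untreated ones, and untreated 2 was lowest, a log2 fold change of 1.22 ± 0.29 (adjusted p = 0.0140). Both calls held in all 19 alternatives. The log2 fold change of ACACA was smaller after the correction for length (0.81) and after that for GC content and length (0.87).

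FASN, which works between these 2 enzymes, had 371, 368 and 435 CPM in oxaliplatin libraries, against 369, 375 and 388 CPM in untreated ones. The groups overlapped, with a log2 fold change of 0.05 ± 0.10 (adjusted p = 0.727). The other 6 were not called, with log2 fold changes of -0.34 for FADS2 to 0.38 for ACSS2, which makes acetyl-CoA from acetate (adjusted p = 0.0755). The branch median was 0.09, and this value depended on gene length: it was -0.21 after a correction for length, where FADS1 and FADS2 were called lower as well, and -0.06 after a correction for GC content and length. FADS2 shares 490 bases of exon with FADS1 on the opposite strand and 49 with FEN1, a DNA repair nuclease that fell to 31.3 ± 4.00 CPM in oxaliplatin, against 70.1 ± 7.24 CPM in untreated libraries.

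**Figure D3:**
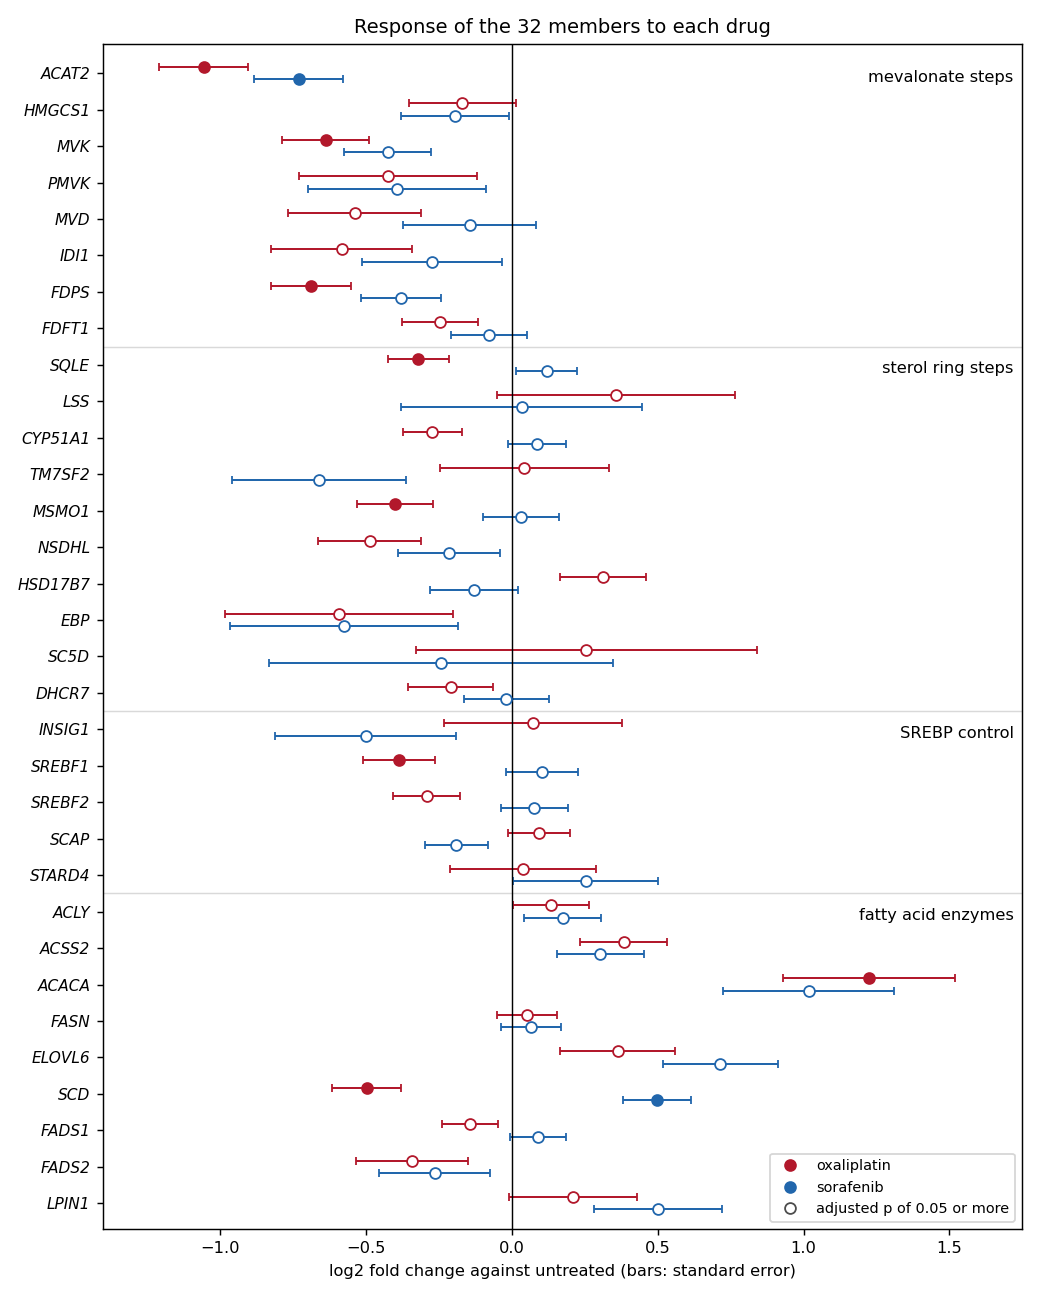
Log2 fold change of each of the 32 members against untreated cells, in oxaliplatin (red) and sorafenib (blue), with standard errors as bars, filled where the adjusted p was under 0.05. The mevalonate steps all lie left of 0 in both drugs, and SCD lies left of 0 in oxaliplatin and right of 0 in sorafenib.

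Cells in sorafenib differed from untreated cells at 2 members: ACAT2 was lower and SCD was higher. That is 6.25% of the 32, against 4.8% of all genes tested. The groups did not overlap for 8 of 32 members, or 25.0%, against 29.8% of all genes. ACAT2 had 29.7, 23.1 and 21.7 CPM in sorafenib libraries, against 35.1, 45.7 and 42.9 CPM in untreated ones, a log2 fold change of -0.73 ± 0.15 (adjusted p = 0.0304). The highest sorafenib value, in library 1, lay nearest to the lowest untreated value, also in library 1. TCP1, which shares exon bases with ACAT2, had a log2 fold change of -0.44 ± 0.13 in sorafenib (adjusted p = 0.0828). SCD had 196, 236 and 229 CPM in sorafenib libraries, against 139, 153 and 176 CPM in untreated ones, a log2 fold change of 0.50 ± 0.12 (adjusted p = 0.0431).

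Neither call was robust to the loss of a library. That of ACAT2 ended without any 1 of untreated 2 or 3, oxaliplatin 1 or 2, or sorafenib 2 or 3 (adjusted p from 0.0507 to 0.128). That of SCD ended without any 1 of the untreated libraries, oxaliplatin 1 or 2, or sorafenib 2 or 3 (0.0556 to 0.169). Without untreated 1 and sorafenib 1 together, a choice made after seeing the data, the calls increased to 6 of 32. ACAT2 (-0.99, adjusted p = 0.00418), FDPS (-0.59, 0.0183) and MVK (-0.59, 0.0418) were lower. SCD (0.49, 0.0202), ACACA (1.42, 0.0192) and LPIN1 (0.89, 0.0147) were higher. Over all genes the number called increased to 2934 from 775, where the main fit tested 16159. The increase was therefore not particular to the members. Sorafenib 1 was the sorafenib library nearest to the untreated mean for 20 of the 32 members, and its ACACA level of 24.4 CPM stood beside 44.5 and 41.3 CPM in sorafenib 2 and 3 and 22.6, 10.6 and 21.2 CPM in untreated libraries.

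All 8 mevalonate genes again had negative log2 fold changes in sorafenib, under the main and the same 4 other scalings, with a median of -0.33 against 0 over all genes. FDPS had 76.0, 65.2 and 60.3 CPM in sorafenib libraries, against 74.4, 91.7 and 96.2 CPM in untreated ones (adjusted p = 0.123), and MVK had 11.1, 9.03 and 9.97 CPM, against 11.97, 14.3 and 14.2 CPM (adjusted p = 0.115). HMGCS1 had 23.7, 24.1 and 28.5 CPM in sorafenib libraries, against 31.5, 26.2 and 29.7 CPM in untreated ones (adjusted p = 0.541). The 2 drugs share the untreated libraries, so their like signs are not independent of each other.

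Of the 10 genes after squalene and the 5 regulators, edgeR called 0 in sorafenib, against 4.8% of all genes. None had an unadjusted p under 0.05, and DESeq2 called 0. SQLE had 37.7, 42.6 and 44.0 CPM in sorafenib libraries, against 36.3, 39.0 and 39.1 CPM in untreated ones, with overlapping ranges (adjusted p = 0.502). SREBF1 had 96.4, 97.9 and 82.1 CPM, against 87.4, 89.0 and 80.9 CPM in untreated ones (adjusted p = 0.634), and SREBF2 had 170, 168 and 166 CPM, against 170, 150 and 159 CPM (adjusted p = 0.712). INSIG1 had 5.65, 5.17 and 6.16 CPM in sorafenib libraries, against 5.51, 5.97 and 12.5 CPM in untreated ones, where untreated 3 alone stood high (adjusted p = 0.339).

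In the fatty acid branch 9 of 10 genes had a positive log2 fold change in sorafenib under the main scaling, with a median of 0.24, but 6 of 10 after the correction for length and 8 of 10 after that for GC content and length. ELOVL6, at 6.74, 6.81 and 8.36 CPM in sorafenib libraries against 4.63, 4.20 and 4.51 CPM in untreated ones, did not overlap, at 0.71 ± 0.20 on the log2 scale (adjusted p = 0.0626, 0.0470 without oxaliplatin 3 and 0.0274 by DESeq2). For ACACA the change was 1.02 ± 0.29 (adjusted p = 0.0751, 0.0294 without sorafenib 1 and 0.0114 by DESeq2). LPIN1, a phosphatidate phosphatase, had 0.50 ± 0.22 (adjusted p = 0.187, and 0.0429 without untreated 1). FASN had 370, 418 and 397 CPM in sorafenib libraries, against 369, 375 and 388 CPM in untreated ones (adjusted p = 0.729).

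**Figure D4:**
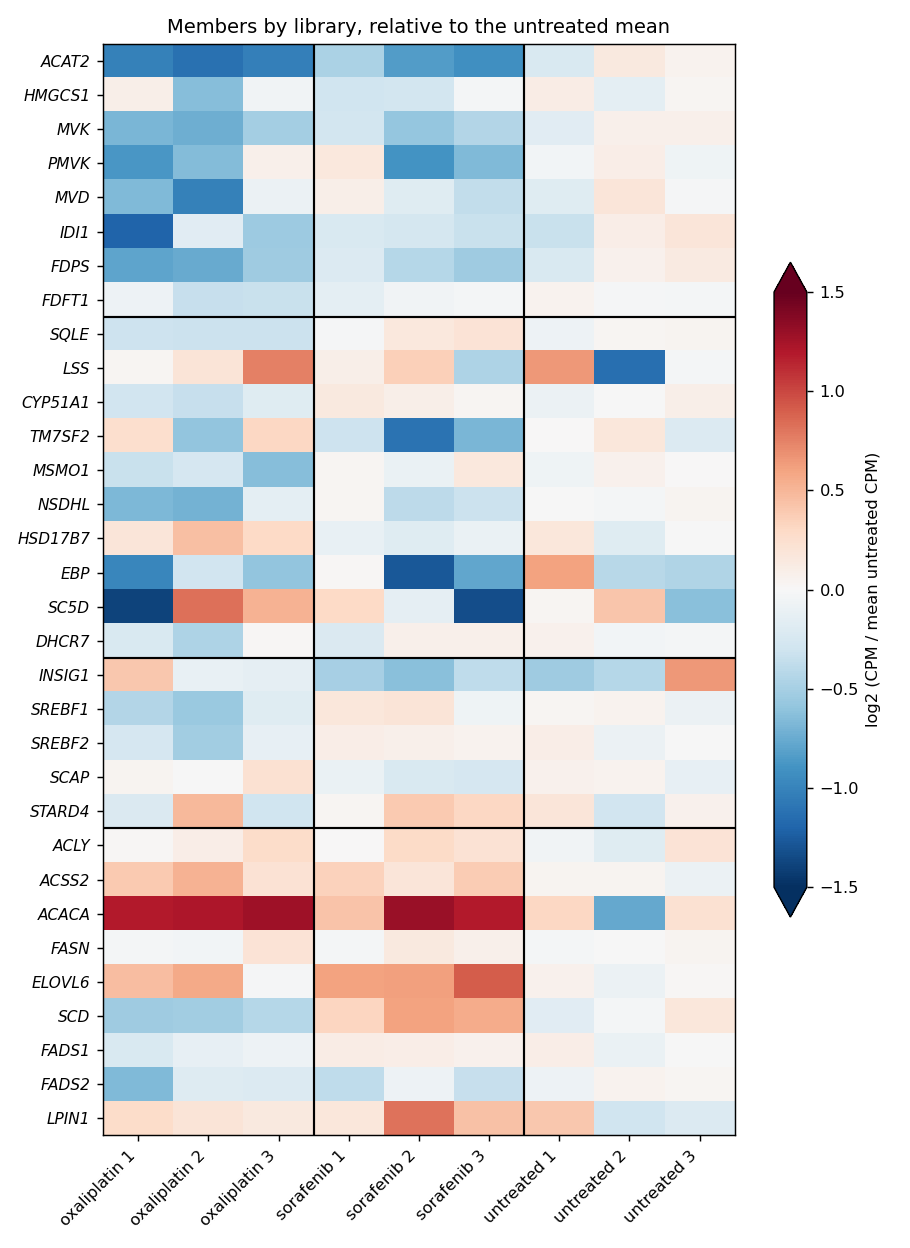
Log2 ratio of each member's CPM in each library to its mean CPM over the untreated libraries, with blue below and red above it, for oxaliplatin, sorafenib and untreated libraries 1 to 3; lines divide the mevalonate steps, sterol ring steps, SREBP control genes and fatty acid enzymes. The ACAT2 and FDPS rows are blue in all 6 drug libraries, and the ACACA row is palest among drug libraries in sorafenib 1.

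The direct comparison of the drugs put SCD first. Its level in oxaliplatin was 110.5 ± 4.56 CPM, against 220 ± 21.6 CPM in sorafenib (SD, n = 3 each). The log2 fold change was -0.99 ± 0.12 (adjusted p = 0.00116), and the call held in all 19 alternatives. With SQLE (-0.44 ± 0.10, adjusted p = 0.0274), SREBF1 (-0.49 ± 0.12, adjusted p = 0.0343) and CYP51A1 (-0.36 ± 0.10, adjusted p = 0.0490), 4 of 32 members or 12.5% were called, all lower in oxaliplatin than in sorafenib, against 10.3% of all genes. The last 3 calls were each lost with libraries left out: SQLE without oxaliplatin 1 or 2 or sorafenib 2 or 3 (adjusted p from 0.0781 to 0.0966), SREBF1 without untreated 3, oxaliplatin 1 or 2, or sorafenib 1 or 2 (0.0505 to 0.124), and CYP51A1 without any 1 library but untreated 1 and oxaliplatin 3 (0.0681 to 0.155). CYP51A1 had 49.6, 47.7 and 53.6 CPM in oxaliplatin libraries, against 67.2, 64.5 and 61.9 CPM in sorafenib ones, without overlap. Its 3 processed pseudogenes together drew 488 counts, 5.05% of the gene's 9656. CYP51A1 also shares 2844 bases of exon, 79.4% of its own, with AC000120.2 on the same strand, which held 0 counts. How reads in that stretch were assigned was not tested.

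ACAT2, FDPS and MVK, lower in oxaliplatin than in untreated cells, had log2 fold changes of -0.32, -0.31 and -0.21 between the drugs, which missed the threshold (adjusted p = 0.195, 0.179 and 0.390). For ACACA the value was 0.21 ± 0.29 (adjusted p = 0.683). Over the fatty acid branch, 6 of 10 genes lay above the untreated mean in both drugs and 3 below it in oxaliplatin and above it in sorafenib: SREBF1, SCD and FADS1. Over the sterol branch, 11 of 22 lay below it in both drugs and 4 were below it in oxaliplatin and above it in sorafenib: SQLE, CYP51A1, MSMO1 and SREBF2. The other way round, 5 sterol branch genes were above it in oxaliplatin and below it in sorafenib: HSD17B7, INSIG1, SC5D, SCAP and TM7SF2. Among these 12 genes with opposite signs, SCD, SQLE, CYP51A1 and HSD17B7 kept both signs in all 19 alternatives, and the other 8 changed 1 or both in at least 1 of them. Within the oxaliplatin group, library 3 was nearest to the untreated mean for 16 of the 32 members.

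Genes around the pathway, its regulators and users of its products, were read from 6 lists. In the isoprenoid branch 5 of 16 genes, or 31.2%, were lower in oxaliplatin than in untreated cells and none higher, against 31.7% of all genes called in either direction and 15.5% called lower. ICMT, which methylates prenylated proteins, had 42.2, 40.04 and 48.0 CPM in oxaliplatin libraries, against 96.9, 103 and 104 CPM in untreated ones, a log2 fold change of -1.23 ± 0.11 (adjusted p = 0.000601). COQ2, which attaches the side chain of ubiquinone, followed at -0.81 ± 0.18 (adjusted p = 0.00871). RABGGTB, a subunit that prenylates Rab proteins, had -0.37 ± 0.10 (adjusted p = 0.0193), lost without any 1 of untreated 2 or 3 and oxaliplatin 1 or 2 (0.0614 to 0.0786). In sorafenib edgeR called 0 of the 16, against 4.8% of all genes, with 1 at an unadjusted p under 0.05, and DESeq2 called 0.

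Of 21 tested genes of cholesterol transport and storage, 4 were higher and 2 lower in oxaliplatin than in untreated cells, or 28.6% against 31.7% of all genes. ABCA1, the exporter that hands cholesterol to lipoproteins, had 99.0, 108 and 90.2 CPM in oxaliplatin libraries, against 32.1, 35.8 and 40.3 CPM in untreated ones, a log2 fold change of 1.46 ± 0.16 (adjusted p = 0.00106). Every oxaliplatin library lay above every untreated one by more than the width of either group. NPC1, which moves cholesterol out of lysosomes, was higher in both drugs, with 152, 152 and 151 CPM in oxaliplatin libraries and 154, 190 and 201 CPM in sorafenib libraries, against 103, 95.3 and 98.8 CPM in untreated ones (0.62 ± 0.11, adjusted p = 0.00442, and 0.88 ± 0.11, adjusted p = 0.00472). These 3 calls held without any 1 library. NCEH1, a cholesteryl ester hydrolase, had 0.50 ± 0.12 in oxaliplatin (adjusted p = 0.0119, and 0.0514 and 0.0509 without untreated 2 or 3).

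In sorafenib 2 genes of that list were higher and 1 lower than in untreated cells, or 14.3% against 4.8% of all genes: NPC1, the lipoprotein receptor LRP8 (0.63 ± 0.15, adjusted p = 0.0453) and the oxysterol receptor NR1H3 (-0.75 ± 0.18, adjusted p = 0.0471). The calls of LRP8 and NR1H3 were lost without any 1 library but untreated 1 and sorafenib 1 for LRP8 (0.0522 to 0.172) and without any but sorafenib 1 for NR1H3 (0.0508 to 0.179). Of 13 SREBP processing genes 3, or 23.1%, were called in oxaliplatin, against 31.7% of all genes. In sorafenib 1, or 7.69%, was called, against 4.8% of all genes. The endoplasmic reticulum ubiquitin enzyme UBE2J2 was lower in oxaliplatin (-0.64 ± 0.13, adjusted p = 0.00601). UBE2G2 (-0.27 ± 0.09, adjusted p = 0.0459) and the site-1 protease MBTPS1 (0.47 ± 0.16, adjusted p = 0.0447) were called there at the threshold. UBE2G2 was lost in 7 of the 9 omissions, all but untreated 1 and sorafenib 1 (0.0652 to 0.132), and MBTPS1 in 6, all but untreated 2, oxaliplatin 3 and sorafenib 1 (0.0591 to 0.155). The site-2 protease MBTPS2 was higher in sorafenib (0.76 ± 0.17, adjusted p = 0.0405), a call lost without any 1 of untreated 2 or 3, oxaliplatin 1 or 2, or sorafenib 2 or 3 (0.0520 to 0.152).

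**Figure D5:**
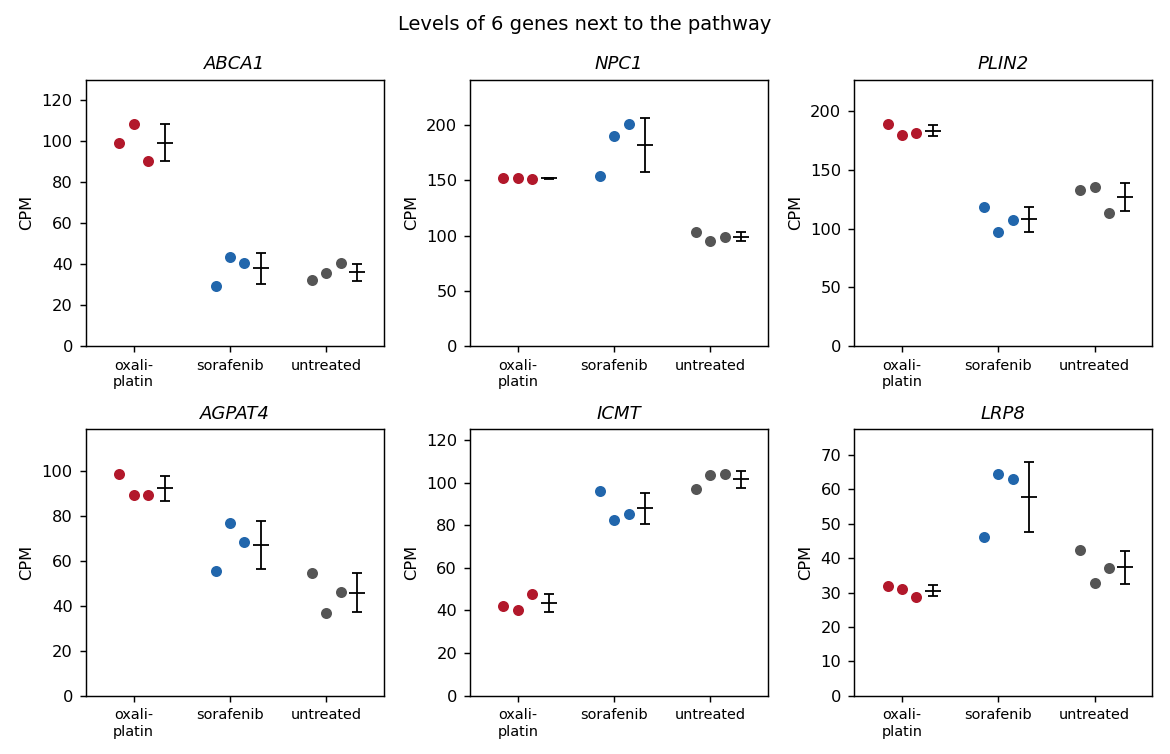
Level in CPM of 6 genes beside the pathway in each library (points), with the mean and SD of 3 libraries per group in black. ABCA1, PLIN2 and AGPAT4 are highest and ICMT lowest in oxaliplatin, NPC1 is above untreated in both drugs, and LRP8 is highest in sorafenib.

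The lists of the fatty acid side had 15.0% (elongation and activation), 40.0% (glycerolipid synthesis) and 18.2% (oxidation) of their genes called in oxaliplatin, against 31.7% of all genes. Here 2 of 20 tested elongation and activation genes were higher and 1 lower in oxaliplatin than in untreated cells: the acyl-CoA synthetase ACSL1 (1.24 ± 0.20, adjusted p = 0.00312) and the second desaturase SCD5 (1.21 ± 0.20, adjusted p = 0.00323), against the elongation reductase TECR (-0.72 ± 0.17, adjusted p = 0.0114). SCD5 had 3.80 ± 0.38 CPM in oxaliplatin and 1.64 ± 0.17 CPM in untreated libraries. In glycerolipid synthesis 4 of 15 tested genes were higher and 2 lower in oxaliplatin, with the acyltransferase AGPAT4 at 92.5 ± 5.54 CPM, against 45.9 ± 8.71 CPM in untreated libraries (1.01 ± 0.16, adjusted p = 0.00304), the lipid droplet coat PLIN2 at 183 ± 4.84 CPM, against 127 ± 11.9 CPM (0.53 ± 0.11, adjusted p = 0.00747), and LPIN3 at 0.66 ± 0.14 (adjusted p = 0.00839). In fatty acid oxidation 2 of 22 were higher and 2 lower, with the carnitine transferase CPT1A (0.78 ± 0.17, adjusted p = 0.00803) and the peroxisomal EHHADH (0.71 ± 0.12, adjusted p = 0.00383) higher and ECHS1 lower (-0.73 ± 0.12, adjusted p = 0.00363). The calls of these 9 genes held without any 1 library. In sorafenib edgeR called 0 genes of these 3 lists, against 4.8% of all genes. At an unadjusted p under 0.05 there were 5 in elongation and activation, 5 in glycerolipid synthesis and 3 in oxidation, and DESeq2 called 2 (TECR and OXSM), 4 (AGPAT4, PNPLA3, AGPAT2 and MGLL) and 1 (ECHS1), names given after their values were seen.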

How the data were processed

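Messenger RNA of 9 libraries, 3 each of oxaliplatin, sorafenib and untreated cells, was sequenced on an Illumina NovaSeq instrument, per the labels' protocols. The authors deposited raw read counts per gene. featureCounts, DESeq2 and the build GRCh38 are named in the submitters' processing notes; the aligner, strand setting and versions are not given in the sources used here. Gene coordinates and symbols came from the deposited files, and exon length, GC content and overlaps from GENCODE 29.

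Genes were kept by edgeR's filterByExpr, leaving 16159 of 60683. Counts were scaled by TMM factors of 0.944 to 1.05, and 1 model over all 9 libraries was tested with edgeR 4.0.16 (robust quasi-likelihood F-test, R 4.3.3), with Benjamini-Hochberg adjustment over all genes tested and a threshold of 0.05. The biological coefficient of variation was 0.224. Standard errors are the log2 fold change divided by the square root of F. The script was tested on simulated data. Alternatives were DESeq2 1.42.0, RLE factors, library size only, no filter, a mean of at least 1 CPM, only the groups compared, the replicate number as a block, corrections for length or for GC content and length, each library left out, and a minimum of 1.5-fold for counts. The GC correction and the omission of untreated 1 with sorafenib 1 were chosen after seeing the data.

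The members and all gene lists were chosen with earlier results of these data known. Named neighbours are, per list and drug, up to 3 genes with the smallest adjusted p among those called with a mean of at least 1 CPM. Promoters came from RefSeq (GRCh38.p14).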

Additional observations from a re-analysis of the deposited data

How the results depend on the processing

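Of 14 member results past the threshold, 6 stayed past it in all 19 alternatives (ACAT2, FDPS, MVK, SCD and ACACA in oxaliplatin against untreated, and SCD between the drugs) and 8 lost it in at least 1. Of 82 not past it, 17 passed in at least 1 and 65 in none. None of the 14 changed sign; of the 82, 23 changed sign in at least 1 alternative, each within 0.26 of 0 on the log2 scale as reported and none past the threshold where the sign differed. The fatty acid median in oxaliplatin against untreated became -0.21 under the length correction; the cause was not tested. Counts are sterol branch, fatty acid branch and all genes called. In oxaliplatin against untreated they were 5, 3 and 5123: the sterol count was 3 under library size only, no filter, only the groups compared, the replicate block and the 1.5-fold minimum, and the fatty acid count was 5 under either length correction and 1 under the 1.5-fold minimum. Without untreated 1 and sorafenib 1 the counts were 5, 2 and 5820. With library size only, the split over all genes was 3395 higher and 1794 lower, against 2619 and 2504, and the median of all genes moved by 0.116.

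In sorafenib against untreated the counts were 1, 1 and 775. They were 0, 0 and 311 with only the groups compared, 0, 0 and 184 with the replicate block, and 3, 3 and 2934 without untreated 1 and sorafenib 1. DESeq2 called 3 fatty acid genes and 1804 genes in all, the GC and length correction 1182 genes, and the 1.5-fold minimum 0 fatty acid genes. Between the drugs the counts were 2, 2 and 1659. The sterol count was 4 by DESeq2, 5 under the GC and length correction, 1 with only the groups compared or without untreated 1 and sorafenib 1, and 0 under library size only, no filter, the block and the 1.5-fold minimum. The fatty acid count was 1 under library size only, only the groups compared, the block, the 1.5-fold minimum and without untreated 1 and sorafenib 1, and the block called 809 genes. With library size only the split between the drugs was 1072 higher and 599 lower, against 840 and 819.

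With 1 library left out, the counts ranged over 3 to 6, 2 to 3 and 2913 to 5403 in oxaliplatin against untreated, 0 to 1, 0 to 2 and 113 to 1743 in sorafenib against untreated, and 0 to 3, 1 to 2 and 572 to 1949 between the drugs. Libraries of the same number did not deviate together (correlations of -0.11 to 0.036), so no pairing by number was seen. With 3 libraries a group this cannot exclude a pairing. Whether a call lost under the block marks a weaker effect was not tested. Genes with few counts, such as LSS with 479 over all libraries, carry the most counting error.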
